A study of Mus musculus with 23 samples.

Results

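The SWI/SNF complexes, named BAF complexes in mammals, were examined through the RNA levels of 10 genes that encode their subunits: Smarca4, Smarca2, Arid1a, Arid1b, Smarcb1, Smarcc1, Smarcc2, Smarcd1, Smarce1 and Actl6a. They were listed by gene name under a rule that holds no measured value, and are 10 of the 23369 gene names in the RNA-seq tables. The choice was not blind, because earlier results of these data were known when it was made. Each of the 10 had a single row in every sample and passed the filter on low values, so all of them were tested.

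RNA was sequenced from mouse embryonic stem cells (ESCs) of the line MS12 KDM2Bfl/fl, with 3 samples of untreated cells and 3 of cells given 800 nM 4-hydroxytamoxifen for 72 hr. The series text gives this dose as 800 µM. In these cells both copies of Kdm2b carry recombination sites around an exon for the ZF-CxxC domain, the part of KDM2B that binds unmethylated CpG dinucleotides, and a stably expressed Cre recombinase becomes active with tamoxifen and removes that exon. Untreated cells hold the same floxed alleles and the same Cre, and cells without either were not analysed here, so that exon loss and any effect of tamoxifen or of active Cre cannot be told apart. All cells were grown with LIF and serum on inactivated mouse embryonic fibroblasts and were left overnight without this feeder layer before use. PolyA+ RNA was made into directional libraries, and the methods call the 3 samples of a group biological triplicates. The other 17 of the 23 samples in the series are chromatin immunoprecipitations, for which no values were analysed here.

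SWI/SNF complexes are ATP-dependent chromatin remodellers that slide and evict nucleosomes and thereby open DNA to transcription factors. They are assembled from an ATPase, a set of core and scaffold subunits and alternative paralogs, and the form found in ESCs is built around Smarca4, Arid1a and Smarcc1. In flies SWI/SNF genes are known to counteract polycomb genes, and in mammalian cells the complex can displace polycomb proteins from chromatin.

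The label of each sample set its group. File names carry the reverse designation for all 6 RNA-seq samples, and with that reading each difference given here would have the opposite sign and the same size. Levels are FPKM, the fragments of a gene scaled to transcript length and to sequencing depth. Between 11571 and 11980 rows per sample reached an FPKM of 1. Read totals cannot be recovered from FPKM, and the depth in reads is therefore unknown. The FPKM of a sample summed to between 549379.4 and 1045707.3, of which loci under 300 bp held 23.9% to 67.7%. All 10 ESC markers examined, among them Pou5f1 and Nanog, were at 1 FPKM or more in each sample. Of 10 fibroblast markers, 7 were also at 1 FPKM or more in each sample and Lum was listed at 0 in untreated replicate 1, and the summed level of the 10 was 53.2 to 146 FPKM in untreated and 87.2 to 118 FPKM in tamoxifen samples. In RNA from whole cultures, fewer cells of a type and less RNA per cell cannot be told apart. Kdm2b itself was at 27.0, 21.5 and 27.7 FPKM in untreated replicates 1, 2 and 3 and at 19.9, 21.9 and 25.0 FPKM in tamoxifen replicates 1, 2 and 3. These groups overlapped, and a value for the whole gene does not resolve the floxed exon.

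The test was limma over 12997 genes, on log2(FPKM + 0.1), and p-values were adjusted by Benjamini-Hochberg with a threshold of 0.05. A log2 fold change is tamoxifen minus untreated on that scale. Same-numbered samples of both groups deviated from their group means in common, so another model that blocks on replicate number is given beside the unblocked one. Without the block 0 of the 10 members passed the threshold, and the lowest adjusted p was 0.999. An unadjusted p under 0.05 was found for 0 members and for 623 of the 12997 tested genes. Across all tested genes this fit called 0.0231% higher and 0.00769% lower. With the block 0 members were higher and 1, Smarcc2, was lower, against 4.33% of all tested genes higher and 6.06% lower. An unadjusted p under 0.05 was then found for 4 of the 10 members and for 3873 of the 12997 tested genes. From this count nothing is read about the members.

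The members spanned a wide range of levels. In order of their mean over the 6 samples they were Actl6a at 91.2, Smarcc1 at 66.3, Smarcb1 at 65.6, Smarcd1 at 58.2, Smarca4 at 40.9, Arid1a at 30.9, Smarce1 at 20.7, Smarcc2 at 7.66, Arid1b at 3.19 and Smarca2 at 1.99 FPKM. Of the 9 neighbouring pairs in this order, only Smarce1 with Smarcc2 and Smarcc2 with Arid1b had ranges that did not overlap. The 3 low members each have a paralog among the 10 that was higher in every sample.

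**Figure D1:**
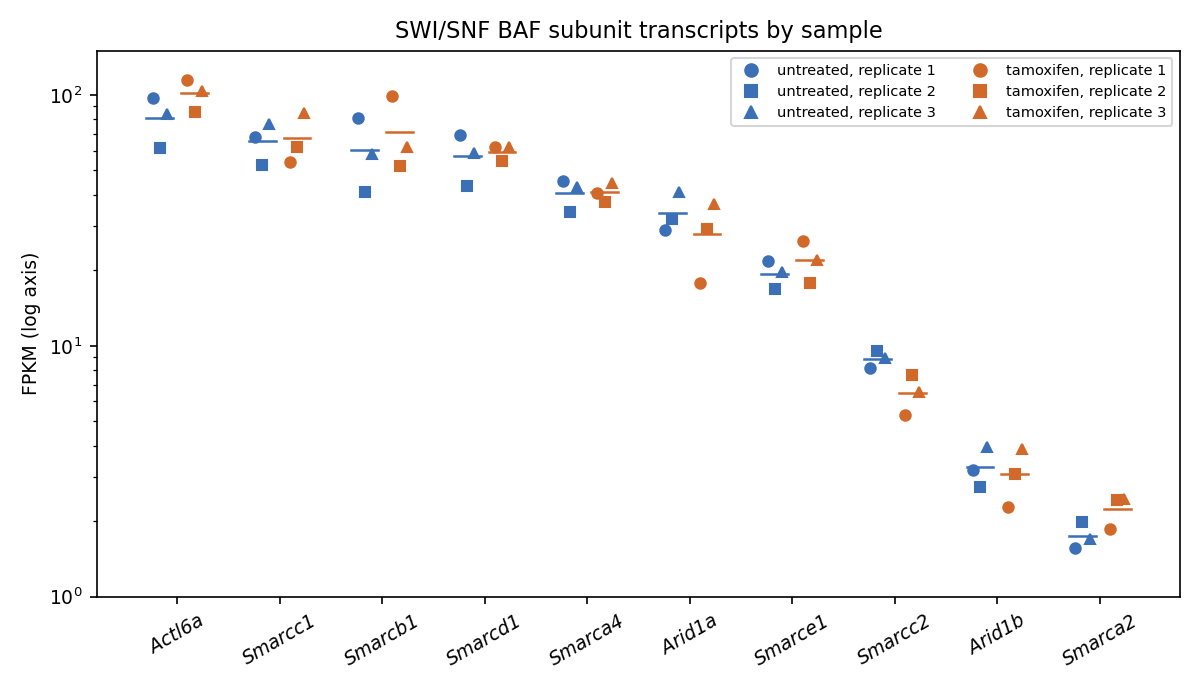
FPKM of the 10 members in each of the 6 samples, on a log axis, with untreated samples in blue, tamoxifen samples in orange, a marker shape for each replicate number and bars for the group means. Smarcc2 alone has all 3 tamoxifen samples, at 5.29 to 7.62 FPKM, below all 3 untreated samples, at 8.13 to 9.49 FPKM.

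Because the ZF-CxxC domain binds unmethylated CpG dinucleotides, the 250 bases upstream of the first base of each deposited locus (mm9) are described here. Of these windows 3 are shown, for the ESC scaffold gene Smarcc1, for its paralog Smarcc2 and for Smarce1, the member with the fewest CpG. They are written 5′ to 3′ on the strand of the gene, and capitals mark each CG. They were read from the NCBIM37 assembly, which is mm9, at chr9:110034278-110034527 (+), chr10:127896042-127896291 (+) and chr11:99092332-99092581 (−).
Smarcc1: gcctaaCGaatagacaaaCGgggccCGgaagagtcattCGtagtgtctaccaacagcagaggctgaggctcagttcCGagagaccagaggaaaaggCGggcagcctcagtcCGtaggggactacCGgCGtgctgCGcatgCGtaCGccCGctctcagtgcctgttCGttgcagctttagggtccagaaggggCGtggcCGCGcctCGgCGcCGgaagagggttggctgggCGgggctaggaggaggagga
Smarcc2: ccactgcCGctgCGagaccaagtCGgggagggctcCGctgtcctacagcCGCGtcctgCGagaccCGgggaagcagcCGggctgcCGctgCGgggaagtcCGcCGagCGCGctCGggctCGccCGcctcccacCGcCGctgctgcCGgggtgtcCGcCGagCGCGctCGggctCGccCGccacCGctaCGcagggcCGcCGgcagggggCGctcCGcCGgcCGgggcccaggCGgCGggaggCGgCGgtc
Smarce1: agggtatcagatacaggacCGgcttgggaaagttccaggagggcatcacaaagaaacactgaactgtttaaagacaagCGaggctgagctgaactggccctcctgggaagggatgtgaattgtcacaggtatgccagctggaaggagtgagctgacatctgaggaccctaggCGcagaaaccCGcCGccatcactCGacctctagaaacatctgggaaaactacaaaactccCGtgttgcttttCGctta
The Smarcc1 window held 21 CG, the Smarcc2 window 40 and the Smarce1 window 8. CG reads the same on both strands and was found in 99.2% of the windows of 12201 tested genes, with a median of 16. The number for Smarcc2 was above that of 97.1% of these genes, and the number for Smarce1 above that of 18.5%. Over the 10 members the median was 26.5, with 25 CG for Smarca4, 28 for Smarca2, 33 for Arid1a, 37 for Arid1b, 21 for Smarcb1, 29 for Smarcd1 and 19 for Actl6a. A CpG-rich window, taken as one with 55% GC or more and a ratio of observed to expected CpG of 0.6 or more, was found for 9 of the 10 members, all but Smarce1, and for 56.6% of tested genes. The annotation places part of the window of Arid1b and of Smarcb1 in an exon of the same gene, and part of that of Smarcd1 in an exon of Gm17349 on the other strand. Neither KDM2B binding nor DNA methylation was measured in these windows here.

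The alternative ATPases were far apart in level, with Smarca4 at least 15.4-fold above Smarca2 in every sample. Smarca4 (mm9 chr9:21420613-21508674), which encodes BRG1, the ATPase of the ESC complex, was at 45.2, 34.3 and 43.0 FPKM in untreated replicates 1, 2 and 3 and at 40.7, 37.4 and 44.7 FPKM in tamoxifen replicates 1, 2 and 3. The groups overlapped fully, with means of 40.8 ± 5.79 and 40.9 ± 3.65 FPKM (SD, n = 3 each). The log2 fold change was 0.01 with a standard error of 0.21 (limma adjusted p = 1.00), and the interval with the block ran from −0.22 to 0.24. This gene lay above 84.3% of tested genes in level.

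Smarca2 (chr19:26679650-26852811), which encodes BRM, the ATPase known to become more abundant as cells differentiate, was at 1.56, 1.99 and 1.69 FPKM in untreated replicates 1, 2 and 3 and at 1.85, 2.42 and 2.44 FPKM in tamoxifen replicates 1, 2 and 3. It was higher with tamoxifen within each replicate number, although tamoxifen replicate 1 lay below untreated replicate 2. Its log2 fold change was 0.34 with a standard error of 0.27 (limma adjusted p = 0.999), and with the block its interval ran from −0.03 to 0.70 (limma adjusted p = 0.194). The summed fibroblast markers were 53.2, 131 and 146 FPKM in untreated and 87.2, 118 and 110 FPKM in tamoxifen replicates 1, 2 and 3. Without Acta2, which smooth muscle and activated fibroblasts express and which moved most between samples of the same number, the sums were 38.6, 105 and 79.4 FPKM in untreated and 47.2, 102 and 77.2 FPKM in tamoxifen samples. Both sums were lowest in replicate 1 of each group, and the part of fibroblasts in the level of Smarca2 was not tested. At this level the intervals that the tables give around each FPKM are the widest among the members, up to 24.0% of the value to each side. The locus of Smarca2 also overlaps that of 4931403E22Rik in the deposited tables.

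The genes whose pattern over the 6 samples was most like that of Smarca2 were Hist1h4k (Pearson's r of log2 values 0.962), Igfbpl1 (0.962) and Klf8 (0.955). These are the 3 highest correlations among all tested genes, over only 6 samples that share their replicate numbers, and are given as a description.

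The ARID subunits help the complex to bind DNA and are mutually exclusive. Arid1a (chr4:133234923-133309526) was at 28.8, 32.0 and 41.1 FPKM in untreated replicates 1, 2 and 3 and at 17.9, 29.1 and 36.6 FPKM in tamoxifen replicates 1, 2 and 3. Within numbers 1, 2 and 3 the difference was −0.686, −0.134 and −0.165 on the log2 scale, lower with tamoxifen each time and most so in number 1, and the groups overlapped. Arid1a had a log2 fold change of −0.33 with a standard error of 0.30 (limma adjusted p = 0.999), and with the block the interval was −0.63 to −0.03 (limma adjusted p = 0.137). Without tamoxifen replicate 1 the unblocked value was −0.04. Arid1b (chr17:4995074-5347656) was at 3.21, 2.74 and 3.96 FPKM in untreated and at 2.28, 3.07 and 3.87 FPKM in tamoxifen replicates 1, 2 and 3. Its groups overlapped, and its log2 fold change of −0.12 (standard error 0.29) took the other sign under quantile normalization, at 0.01.

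The Smarcc scaffolds hold the core of the complex together, and ESCs are known to favour Smarcc1 over Smarcc2, the paralog that becomes prominent in differentiated cells. Smarcc2 (chr10:127896292-127927230) was at 8.13, 9.49 and 8.91 FPKM in untreated replicates 1, 2 and 3 and at 5.29, 7.62 and 6.53 FPKM in tamoxifen replicates 1, 2 and 3. The group means were 8.84 ± 0.68 and 6.48 ± 1.16 FPKM (SD, n = 3 each), and the 3 tamoxifen samples lay below the 3 untreated samples. It was the only member whose groups did not overlap, while 3.09% of all tested genes had all tamoxifen samples above and 5.4% all of them below the untreated ones. Tamoxifen minus untreated was −0.610, −0.313 and −0.442 on the log2 scale in numbers 1, 2 and 3. Of 5 neural markers tested, the block called Pax6, Sox1 and Nes lower. Their log2 fold changes were −1.73, −0.97 and −0.55 (limma adjusted p = 0.0103, 0.0153 and 0.0275). Map2 (−0.41) and Tubb3 (0.15) were not called, and the fit without the block called 0 of the 5. The part of such cells in the level of Smarcc2 was not tested.

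The log2 fold change of Smarcc2 was −0.46, or 0.730-fold. Its interval without the block was −0.97 to 0.06 (limma adjusted p = 0.999) and with the block −0.72 to −0.19 (limma adjusted p = 0.047). With fewer samples the call was lost while the size stayed similar. The log2 fold change was −0.38 without replicate 1 (limma adjusted p = 0.056), −0.53 without replicate 2 (0.174) and −0.46 without replicate 3 (0.141). The intervals of the tables, which cover quantification only, were 7.53 to 8.74 FPKM for untreated replicate 1 and 7.02 to 8.22 FPKM for tamoxifen replicate 2, so that the closest samples of both groups overlapped.

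Smarcc1 (chr9:110034528-110142682) was at 67.8, 52.4 and 76.3 FPKM in untreated replicates 1, 2 and 3 and at 54.3, 62.2 and 84.8 FPKM in tamoxifen replicates 1, 2 and 3. These groups overlapped, with the highest value in a tamoxifen sample and the lowest in an untreated one. The log2 fold change was 0.03 with a standard error of 0.25, and the interval with the block was −0.26 to 0.32 (limma adjusted p = 0.908).

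**Figure D2:**
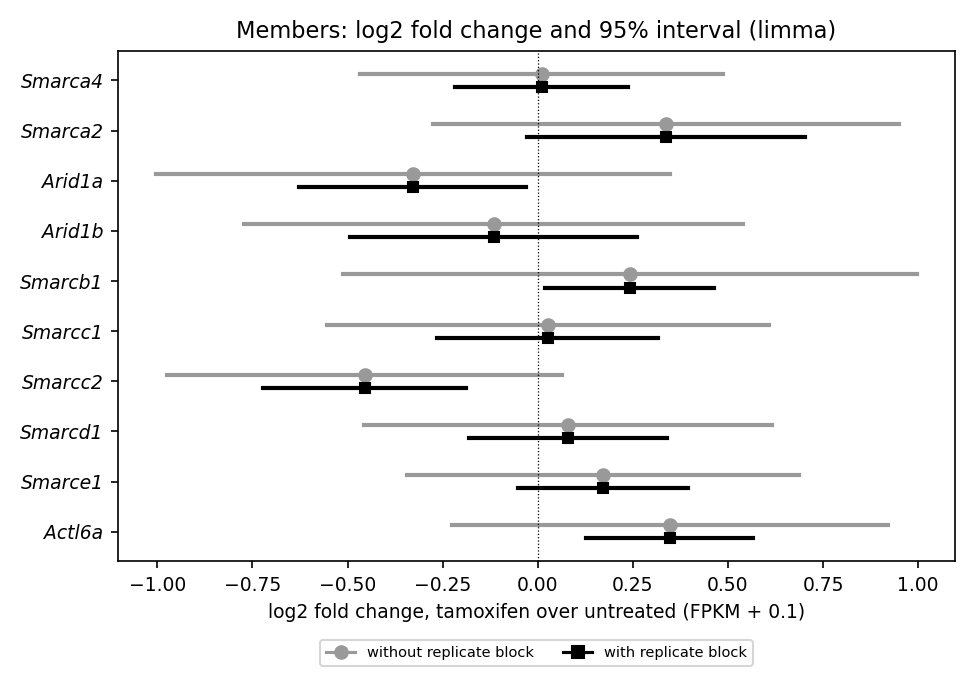
Log2 fold change of each member, tamoxifen over untreated on the log2(FPKM + 0.1) scale, with 95% intervals from limma without (grey) and with (black) blocking on replicate number. Under the block the intervals narrow, that of Smarcc2 lies at −0.72 to −0.19 and that of Actl6a at 0.13 to 0.56, and the points do not move.

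Smarcb1, Smarcd1 and Smarce1 complete the core, and Smarcb1 is the subunit lost in malignant rhabdoid tumours. Smarcb1 (chr10:75359514-75384359) was at 81.3, 40.9 and 58.3 FPKM in untreated replicates 1, 2 and 3 and at 99.2, 52.2 and 62.0 FPKM in tamoxifen replicates 1, 2 and 3. Replicate 1 was the highest sample of both groups, and the spread among untreated samples exceeded the difference between the group means of 60.2 ± 20.2 and 71.1 ± 24.8 FPKM (SD, n = 3 each). Smarcb1 had a log2 fold change of 0.24 with a standard error of 0.33, and with the block the interval was 0.02 to 0.46 (limma adjusted p = 0.141).

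Smarcd1 (chr15:99532718-99544426), a subunit that links the complex to transcription factors, was at 69.2, 43.5 and 58.6 FPKM in untreated and at 61.8, 54.4 and 61.9 FPKM in tamoxifen replicates 1, 2 and 3. The tamoxifen samples all lay inside the untreated range, and the log2 fold change was 0.08 with a standard error of 0.23 (block limma adjusted p = 0.665). Smarce1 (chr11:99070362-99092331), which carries an HMG domain that binds DNA, was at 21.7, 16.8 and 19.7 FPKM in untreated and at 26.2, 17.8 and 22.1 FPKM in tamoxifen replicates 1, 2 and 3. It was higher with tamoxifen within each number, the groups overlapped, and the log2 fold change was 0.17 with a standard error of 0.23 (block limma adjusted p = 0.270).

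Actl6a (chr3:32607468-32625893) encodes the actin-related subunit of proliferating cells, which neurons replace by Actl6b. It was at 97.1, 61.3 and 83.9 FPKM in untreated replicates 1, 2 and 3 and at 115, 85.9 and 104 FPKM in tamoxifen replicates 1, 2 and 3. Each tamoxifen sample exceeded the untreated sample of its number, by 0.244, 0.485 and 0.310 on the log2 scale, although tamoxifen replicate 2 lay below untreated replicate 1. The log2 fold change was 0.35 with a standard error of 0.25 (limma adjusted p = 0.999), and with the block the interval was 0.13 to 0.56 (limma adjusted p = 0.057). Without replicate 1 the block gave an adjusted p of 0.036, and without replicates 2 and 3 it gave 0.274 and 0.140. Actl6b did not pass the filter, with at most 0.104 FPKM and a listed 0 in tamoxifen replicate 3.

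Over the 10 members the log2 fold change was above 0 in 7 and below 0 in 3, with a median of 0.05, beside −0.02 over all tested genes. Smarca2, Smarcb1, Smarce1 and Actl6a were higher with tamoxifen within all 3 numbers and Arid1a and Smarcc2 were lower within all 3, while 24.8% of all tested genes were higher and 28.2% lower in this way. With the block the interval stayed within 1.5-fold in either direction for 7 of the 10 members and within 2-fold for all 10. Without the block the intervals were wider. Only that of Smarca4 (−0.467 to 0.488 on the log2 scale) then stayed within 1.5-fold, and that of Arid1a (−1.003 to 0.347) went past 2-fold. These limits were not counted over all tested genes. The widest bound with the block was −0.72 on the log2 scale, for Smarcc2.

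Within a sample, the ratio of paralogs does not depend on the scaling to mapped fragments. The ratio of Smarcc1 to Smarcc2 was 8.33, 5.52 and 8.57 in untreated replicates 1, 2 and 3 and 10.3, 8.17 and 13.0 in tamoxifen replicates 1, 2 and 3. On the log2 scale its mean was 2.86 ± 0.35 and 3.34 ± 0.33 (SD, n = 3 each), a difference of 0.48 that ran the same way within each number. The difference did not pass an exact two-sided permutation test (p = 0.3, 0.4 after adjustment over 4 pairs).

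The ratio of Smarca4 to Smarca2 was 29.0, 17.3 and 25.4 in untreated and 22.0, 15.4 and 18.3 in tamoxifen replicates 1, 2 and 3. That of Arid1a to Arid1b was 8.99, 11.7 and 10.4 in untreated and 7.85, 9.48 and 9.48 in tamoxifen replicates 1, 2 and 3. That of Smarcd1 to Smarcd2, a paralog outside the 10, was 1.43, 1.49 and 1.99 in untreated and 1.01, 1.42 and 1.84 in tamoxifen replicates 1, 2 and 3. All 3 ratios were lower with tamoxifen within each number, with overlapping groups and differences of −0.33, −0.21 and −0.23 on the log2 scale. Their exact permutation p-values were 0.3, 0.3 and 0.4, each 0.4 after adjustment, and with 3 samples against 3 this test cannot go below 0.1. A sign-flip test within numbers cannot go below 0.25, which all 4 ratios reached.

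**Figure D3:**
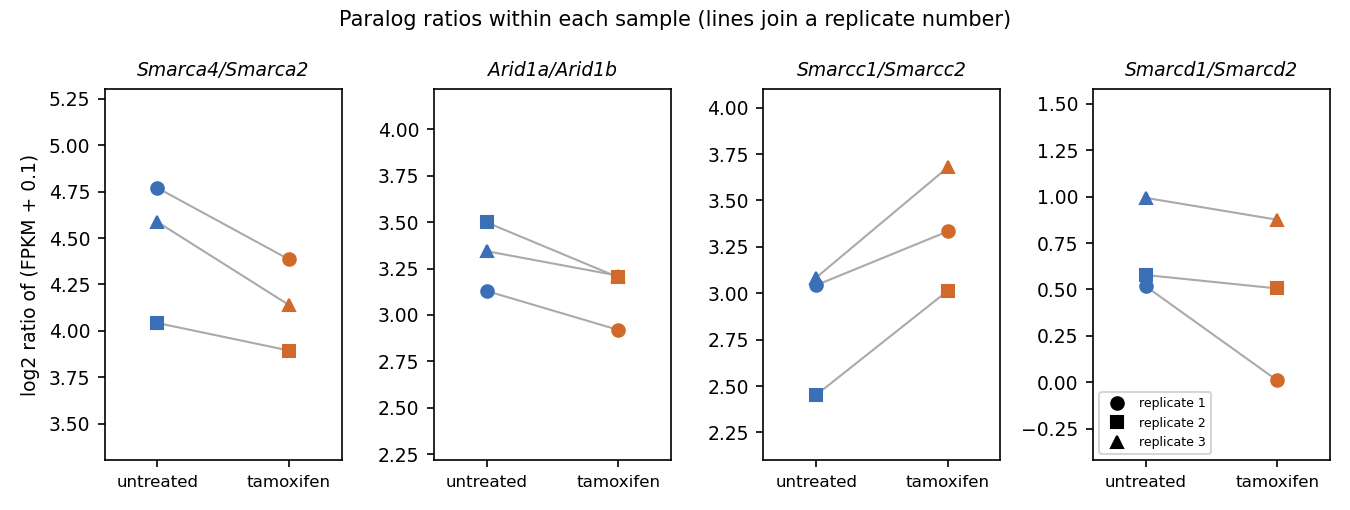
Log2 ratio of FPKM + 0.1 between 4 pairs of paralogs in each sample, with lines joining samples of the same replicate number. Lines for Smarcc1/Smarcc2 go up from a mean of 2.86 to 3.34, and those for the other 3 pairs go down, with overlapping groups in each pair.

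The replicate number moved the members more often than the treatment did, and this held for the tested genes as a whole. In an F test of the replicate number in the block fit, 5 of the 10 members passed the threshold, Arid1a (limma adjusted p = 0.0117), Smarcb1 (0.00245), Smarcc1 (0.0453), Smarce1 (0.0284) and Actl6a (0.0128). Across all tested genes 62.8% did, and nothing about the members is read from their share. It lay below the background here and under most other settings, as with quantile normalization (4 members against 58.8% of genes). It lay above the background with the length trend removed (7 against 62.7%) and with scaling to TPM (8 against 68.5%). Among 18 other SWI/SNF subunits tested, 11 passed.

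The difference between replicate 1 and the mean of replicates 2 and 3, averaged over both groups, was mostly higher in members with shorter transcripts. It was 0.77 on the log2 scale for Smarcb1, with a transcript of 1660 bp, 0.36 for Actl6a (1966 bp) and 0.33 for Smarce1 (2919 bp), and it was −0.31 for Arid1b (11325 bp) and −0.60 for Arid1a (8190 bp). Across the 10 members Pearson's r with log10 length was −0.881, across 17 other subunits −0.655, and across 11937 tested genes with a length it was −0.465. Genes within a sample share their library and are no independent replicates. Some cell type markers also differed between replicate numbers. Of 9 fibroblast markers tested, 6 passed the F test of replicate number, and all 6 were lowest in replicate 1. Of 10 ESC markers 6 passed it, 4 of them highest in replicate 1. The others that passed, Tdgf1 and Fgf4, were highest in replicate 2, with replicate 1 minus replicate 2 at −0.795 and −0.522 on the log2 scale. Both shares were near the 62.8% of all tested genes, and nothing about the markers is read from them. These 4 ESC markers, Pou5f1, Zfp42, Dppa5a and Utf1, have transcripts of 1347, 1800, 619 and 1224 bp. Among tested genes up to 1883 bp the median replicate 1 difference was 0.446, so length and cell type cannot be told apart for these 4. Of the 6 fibroblast markers, Thy1 (1735 bp) and Dcn (1758 bp) are also in that bin. Their replicate 1 minus replicate 2 was −1.40 and −1.84 on the log2 scale. The other fibroblast markers that passed have transcripts of 5347 bp (Col1a2) to 6570 bp (Pdgfra). The part of cell types in the members' differences between replicates was not tested.

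Log2 fold changes with tamoxifen leaned the same way, with Pearson's r of −0.580 across the 10 members and −0.273 across the tested genes. Across the 17 other subunits Pearson's r was −0.0768, but Spearman's rank correlation with length was −0.377. By ranks it was −0.624 across the members and −0.34 across the tested genes, so the other subunits stood apart in Pearson's r only. For Bcl7c, among these other subunits, the annotated length of 4338 bp exceeds its deposited locus of 3789 bp. It is therefore not the length of the model that was quantified, and the correlations of the other subunits, −0.655 above included, rest partly on it. Tested genes were divided by length into 4 bins of about equal size. Up to 1883 bp the median log2 fold change was 0.131, and from 4372 bp it was −0.155. Smarcb1 falls in the shortest bin. Of the 6 members in the longest, Smarcc2 (4934 bp), Arid1a and Arid1b had log2 fold changes below 0, and Smarcc1 (5773 bp), Smarca2 (5913 bp) and Smarca4 (6376 bp) had values of 0.03, 0.34 and 0.01. After the length trend was removed from each sample, the block gave Smarcc2 a log2 fold change of −0.33 (limma adjusted p = 0.052) and Actl6a one of 0.31 (limma adjusted p = 0.036), a change of call for both. The origin of the length trend was not tested.

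**Figure D4:**
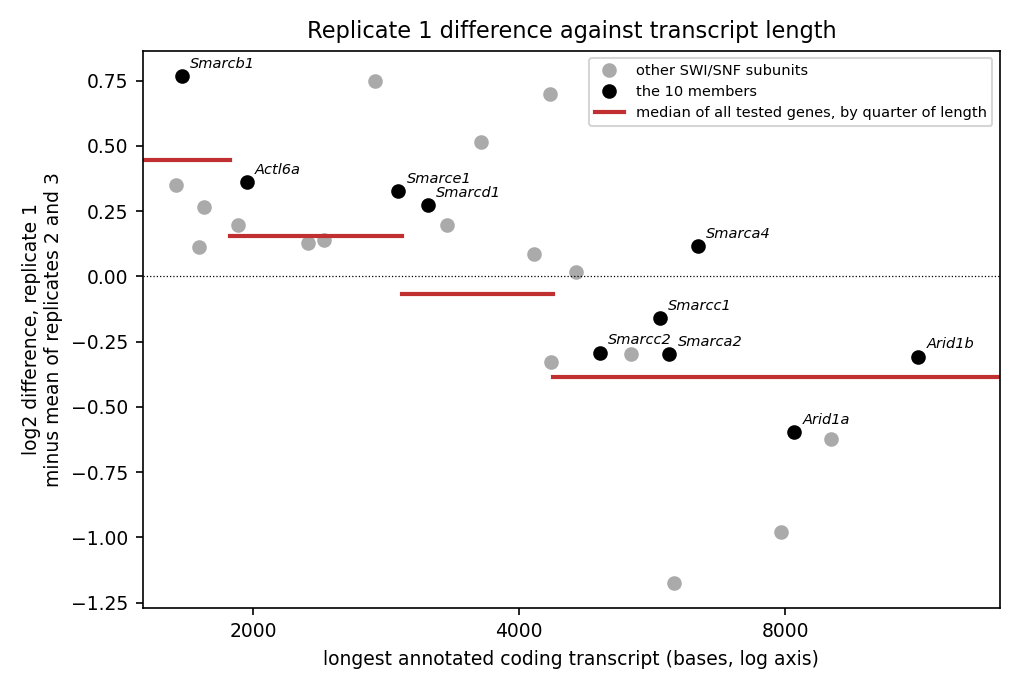
Difference in log2(FPKM + 0.1) between replicate 1 and the mean of replicates 2 and 3, averaged over both groups, against transcript length in bp on a log axis. Black points are the 10 members, from 0.77 for Smarcb1 to −0.60 for Arid1a, grey points are 17 other SWI/SNF subunits, and red lines are medians of all tested genes in 4 bins of length, drawn within the plotted range only.

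The remaining subunits of the BAF, PBAF and non-canonical BAF complexes were taken as a list of 21 genes, of which 18 passed the filter on low values. Dpf3, Bcl11b and Actl6b, forms known from muscle, neurons or lymphocytes, did not. Without the block 0 of the 18 passed the threshold (lowest limma adjusted p = 0.744), and with it 1 was higher and 1 lower. These counts are near the shares of all tested genes with the block, 4.33% higher and 6.06% lower. Their median log2 fold change was 0.08, with a range from −0.86 to 0.45. The highest level was that of Actb, the actin of the complex and of the cytoskeleton, at 1037 to 1795 FPKM.

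Smarcd3, a paralog of Smarcd1 known from heart and muscle, was the lower gene. It was at 3.03, 1.96 and 2.44 FPKM in untreated replicates 1, 2 and 3 and at 1.16, 1.22 and 1.56 FPKM in tamoxifen replicates 1, 2 and 3, and the groups did not overlap. Smarcd3 had a log2 fold change of −0.86, with a block interval of −1.31 to −0.40 (limma adjusted p = 0.0348). Without replicate 2 it was −0.96 (limma adjusted p = 0.156).

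Bcl7c, a small accessory subunit, was the higher gene. It was at 14.6, 10.8 and 8.73 FPKM in untreated and at 22.2, 12.8 and 12.5 FPKM in tamoxifen replicates 1, 2 and 3, with overlapping groups and a rise within each number. The log2 fold change was 0.45, with a block interval of 0.19 to 0.71 (limma adjusted p = 0.0435). Without replicates 1, 2 and 3 it was 0.38, 0.55 and 0.42, with adjusted p-values of 0.054, 0.124 and 0.145. Its locus overlaps Mir762. Smarcd2, used above as a paralog, was at 48.3, 29.1 and 29.4 FPKM in untreated and at 61.4, 38.3 and 33.7 FPKM in tamoxifen replicates 1, 2 and 3, higher within each number and overlapping between groups.

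**Figure D5:**
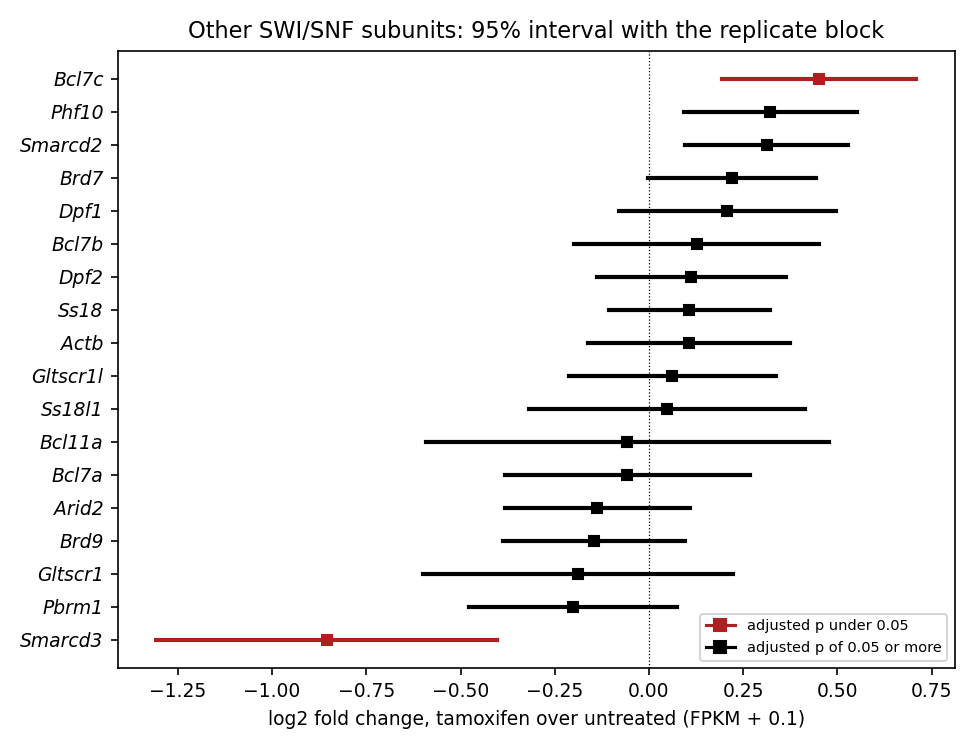
Log2 fold change with 95% limma intervals, blocked on replicate number, for the 18 other SWI/SNF subunits that were tested. Smarcd3 lies lowest at −0.86 and Bcl7c highest at 0.45, and these are the 2 genes past the threshold.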

How the data were processed

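The authors deposited FPKM values per gene row and sample, made from paired-end reads aligned to mm9 with TopHat2 and quantified with Cuffdiff 2.1.1 on refGene models. FPKM values with the same gene name were summed, and 6 names with a failed quantification were left out of 23369. Genes at 0.5 FPKM or more in at least 3 of 6 samples were tested, 12997 in all, with limma 3.58.1 (R 4.3.3, eBayes with a trend) on log2(FPKM + 0.1), without further normalization, after a test on simulated data. The fit without the block followed the unpaired design of the methods. Replicate numbers came from the sample titles, and deviations from the group means of same-numbered samples correlated at 0.544, 0.605 and 0.506, so that they were taken as pairs. Ratios were compared by exact permutation in Python 3.11.15 with scipy 1.17.1. Transcript length is that of the longest annotated coding transcript of a gene in the GENCODE annotation of NCBIM37, found for 91.8% of tested genes. It need not be the length of the refGene model that was quantified. Named genes were the 10 members, Kdm2b, and from the list of other subunits those in a paralog pair, those past the threshold and those lowest and highest in FPKM, with the 3 most correlated genes for each ATPase, of which those for Smarca4 are not reported here. Neural markers were also read, and 5 of 8 were at 1 FPKM or more in each sample and were tested. Of these 5 the block called 3, all lower (Pax6, Sox1 and Nes), and the fit without it 0. The 10 ESC and 10 fibroblast markers gave 0 calls in both. The members and lists were chosen with earlier results of these data known. Alternatives were other pseudocounts, filters and scalings, quantile normalization, the highest row per name, eBayes without a trend, the block and leaving out replicates. Removal of the length trend, the marker sum without Acta2, and the other settings combined with the block, were added after seeing the data.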

Additional observations from a re-analysis of the deposited data

How the results depend on the processing

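Replicate numbers pair the samples, and the block moved the counts past the threshold from 0 to 1 lower member (Smarcc2), from 0 to 1 higher and 1 lower among the other subunits, and over all tested genes from 3 to 563 higher and from 1 to 787 lower. It changed no other call among the members. Without the block, 0 members passed under any alternative, and the lowest adjusted p was 0.762. All tested genes higher then numbered 1 without a filter and 0 with at least 1 FPKM in all 6 samples, and all lower 0 in both and with a pseudocount of 1. Leaving out 1 sample gave 2 (lowest) to 5 (without untreated replicate 1) higher, and 0 (without untreated replicates 2 or 3) to 7 (without tamoxifen replicate 3) lower, with 5 and 4 without tamoxifen replicates 1 and 2.

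Of 180 alternative values of the members' log2 fold changes, 16 changed sign, in 5 members that passed no threshold. Leaving out loci under 300 bp with scaling to TPM gave −0.0775 for Smarca4, −0.0613 for Smarcc1 and −0.0084 for Smarcd1, and lowered the median of all genes to −0.105. Quantile normalization gave −0.0225 for Smarca4, −0.0256 for Smarcc1 and 0.0133 for Arid1b, and removal of the length trend gave 0.13 for Arid1b. Leaving out 1 sample moved Smarca4 from −0.11 to 0.0887, Arid1b from −0.29 to 0.0769, Smarcb1 from −0.0257 to 0.49, Smarcc1 from −0.15 to 0.17 and Smarcd1 from −0.10 to 0.23. Smarca2, Arid1a, Smarcc2, Smarce1 and Actl6a kept their sign throughout. Leaving out 1 sample gave 0.26 to 0.46 for Smarca2, −0.56 to −0.04 (without tamoxifen replicate 1) for Arid1a, −0.58 to −0.32 for Smarcc2, 0.04 (without tamoxifen replicate 1) to 0.31 for Smarce1 and 0.16 (without untreated replicate 2) to 0.49 for Actl6a.

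With the block, members higher numbered 1 (Actl6a) with a pseudocount of 1, with at least 1 FPKM in all 6 samples and with the length trend removed, and 0 to 1 when a replicate number was left out. Members lower numbered 0 with no filter, scaling to TPM, quantile normalization, the length trend removed or eBayes without a trend, and 0 without any single replicate number. The adjusted p of Smarcc2 ranged from 0.0182 to 0.464 over 13 alternatives and was under the threshold in 5, and that of Actl6a ranged from 0.0253 to 0.274 and was under it in 4. For Smarcd3 it was under the threshold in 9 and for Bcl7c in 6. Other subunits higher numbered 0 with no filter, either scaling to TPM or no trend, 3 with at least 1 FPKM in all 6 samples or the length trend removed, and 0 to 1 without a replicate number. Other subunits lower numbered 0 with no filter, scaling to TPM or quantile normalization, and 0 (without replicate 2) to 1 without a replicate number. All genes higher numbered 0 with no filter, 901 with the length trend removed, 328 with no trend, and 36 (without replicate 2) to 744 without a replicate number. All genes lower numbered 0 with no filter, 336 with scaling to TPM, 1190 with short loci left out, and 43 (without replicate 2) to 1011 without a replicate number. Members past the threshold for replicate number went from 5 to 0 with no filter, 8 with scaling to TPM (68.5% of all genes) and 3 with no trend (55.2%). The cause of these shifts was not tested. The 4 paralog ratios kept their direction under the 12 alternatives run for each (pseudocounts, quantile normalization, highest row, ratio of group means, the block and leaving out 1 sample), but Smarcd1 to Smarcd2 was only −0.0059 without tamoxifen replicate 1. The depth in reads is unknown, and with 3 samples a group the median standard error was 0.253 for the members without the block and 0.114 with it.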

Other observations

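Of the 60 FPKM values of the members, 13 lay outside the confidence interval that the tables give for the same value. They belong to Actl6a (6), Smarcd1 (4) and Smarcc1 (3). Among rows at 1 FPKM or more, 16.1% to 19.4% of the values of a sample lay outside their interval, so this is not particular to the members. The interval's width to each side was 2.52% to 24.0% of the value for the members, with a median of 4.86%.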
